A study of Mus musculus with 6 samples.

Results

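The cholesterol synthesis genes described here are Hmgcs1, Idi1, Fdps, Sqle, Lss, Dhcr7, Srebf2 and Insig1. They were chosen by symbol, 8 of the 35027 genes in the expression table, and 6 of them encode enzymes of the pathway while Srebf2 and Insig1 encode its regulators. None of the 8 takes up cholesterol, so uptake is described from a wider list of genes. Mouse thyroid tumors of 2 genotypes were dissociated, and the Kate-positive fraction was sorted and profiled by RNA-seq, with 3 libraries per genotype. The 2 genotypes are set against each other here. The paper instead compared Braf-YAP with Braf tumor cells, and YAP tumor cells with wild-type thyroid cells. YAP mice expressed YAP S127A, a constitutively nuclear mutant, from a dox-inducible transgene in thyroid follicular cells, and BRAFYAP mice combined it with Braf V600E made by the endogenous Braf gene. In both groups a Cre active in thyroid follicular cells switched on the dox-responsive activator together with the red fluorescent reporter Kate, and the labels put the start of dox chow at an age of 4 weeks in both. By the labels, 3 tumors were pooled for each YAP library (replicates 1, 2 and 3) and a single tumor was used for each BRAFYAP library (replicates 1, 2 and 6), in which case pooling and genotype cannot be told apart. The methods of the study instead describe an unpooled tumor for every replicate, and which holds was not settled here.

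Cholesterol is built from acetyl-CoA through mevalonate. The early enzymes make isoprenoid units and farnesyl diphosphate, which also feeds protein prenylation, ubiquinone and dolichol, and the later enzymes close the sterol rings and finish cholesterol. When sterols are scarce, SCAP escorts the precursor of SREBP2 (the product of Srebf2) from the endoplasmic reticulum to the Golgi, where proteases release a transcription factor that activates the synthesis enzymes. When sterols are plentiful, INSIG1 holds SCAP back, and Insig1 is itself an SREBP target. Mevalonate products are also known to keep YAP active, through protein prenylation.

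Values are TPM as deposited (a transcript measure scaled by gene length and by library, with a small offset), which were divided by the genomic span of each gene, introns included. They compare libraries within a gene. Levels between genes are given as length-corrected TPM, recomputed with exonic length. Depth was 26.2 to 36.9 M estimated reads per library. BRAFYAP replicate 6 and YAP replicate 1 stood apart. For BRAFYAP replicate 6 the correlation with the other libraries over all tested genes was 0.733 to 0.879, while BRAFYAP replicates 1 and 2 correlated at 0.979. YAP replicate 1 was about as far from the rest, at 0.733 to 0.935. The thyroid factor Pax8 was present in every library (75.9 to 220 length-corrected TPM). The differentiation gene Tshr was listed at the offset in BRAFYAP replicates 1 and 2. Tg varied widely, at 64.4, 12.0 and 170 length-corrected TPM in YAP and at 1.29, 0.532 and 196 in BRAFYAP. Macrophage markers were abundant despite the sort, with a summed level of 5 genes of 12492 to 42922 length-corrected TPM in YAP and 3397 to 13055 in BRAFYAP. Most of that sum was Lyz2 alone, at 11029 to 38891 in YAP and 3008 to 12011 in BRAFYAP. C1qa was at 773 to 3047 in YAP and 148 to 461 in BRAFYAP, and Cd68 at 495 to 1000 and 192 to 413. Csf1r was at 181 to 644 in YAP and 42.5 to 157 in BRAFYAP, and Adgre1 at 7.12 to 88.8 in all libraries. The sum for 4 epithelial markers was 4556 to 16058 in YAP and 7164 to 16729 in BRAFYAP. These sums do not measure shares of cells. In sorted pools of this kind a lower level per cell and fewer expressing cells cannot be told apart.

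The genes lie on mm10 at the loci of GENCODE M21. Hmgcs1 is on chr13:119690379-119708260 (plus strand), Idi1 on chr13:8885501-8892451 (plus), Fdps on chr3:89093588-89101959 (minus) and Sqle on chr15:59315077-59331192 (plus). Lss is on chr10:76531588-76557138 (plus), Dhcr7 on chr7:143823145-143848410 (plus), Srebf2 on chr15:82147181-82205379 (plus) and Insig1 on chr5:28071363-28078662 (plus). Hmgcs1, Idi1, Fdps, Lss and Srebf2 each overlap at least 1 other annotated gene, among them the microRNA gene Mir33 inside Srebf2. The strand of counting was not stated, so reads of overlapping genes can be shared.

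Promoter windows (RefSeq, GRCm38.p6, 250 bases before to 50 after the start site) were found for 6 of the 8 genes. Windows are shown for 2 enzyme genes (Hmgcs1 and Idi1) and for both regulators, because enzymes and regulators differed in their pattern across libraries. All 4 are on the plus strand, at chr13:119690101-119690400 (Hmgcs1), chr13:8885356-8885655 (Idi1), chr15:82147019-82147318 (Srebf2) and chr5:28071162-28071461 (Insig1). Capitals mark the letters TCACCCCA, which form the core of a known sterol response element, and CCAAT, the box bound by NF-Y, each searched on both strands, so that ATTGG is CCAAT on the opposite strand.
Hmgcs1: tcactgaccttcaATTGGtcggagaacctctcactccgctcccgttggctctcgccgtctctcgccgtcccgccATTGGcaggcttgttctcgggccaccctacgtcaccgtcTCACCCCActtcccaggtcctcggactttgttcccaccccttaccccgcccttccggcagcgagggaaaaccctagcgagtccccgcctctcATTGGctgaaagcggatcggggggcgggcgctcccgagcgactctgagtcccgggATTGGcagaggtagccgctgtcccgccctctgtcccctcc
Idi1: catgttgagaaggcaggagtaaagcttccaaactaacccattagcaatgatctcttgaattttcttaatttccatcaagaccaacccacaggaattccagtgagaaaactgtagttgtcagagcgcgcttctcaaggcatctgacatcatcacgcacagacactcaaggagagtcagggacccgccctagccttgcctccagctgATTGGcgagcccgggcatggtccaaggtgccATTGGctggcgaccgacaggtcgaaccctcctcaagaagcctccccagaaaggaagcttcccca
Srebf2: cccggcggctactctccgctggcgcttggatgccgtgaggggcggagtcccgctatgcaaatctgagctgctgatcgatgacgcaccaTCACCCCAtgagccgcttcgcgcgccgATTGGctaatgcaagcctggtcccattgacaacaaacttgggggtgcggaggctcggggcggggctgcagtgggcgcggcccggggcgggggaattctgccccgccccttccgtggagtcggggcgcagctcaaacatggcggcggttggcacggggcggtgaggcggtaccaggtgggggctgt
Insig1: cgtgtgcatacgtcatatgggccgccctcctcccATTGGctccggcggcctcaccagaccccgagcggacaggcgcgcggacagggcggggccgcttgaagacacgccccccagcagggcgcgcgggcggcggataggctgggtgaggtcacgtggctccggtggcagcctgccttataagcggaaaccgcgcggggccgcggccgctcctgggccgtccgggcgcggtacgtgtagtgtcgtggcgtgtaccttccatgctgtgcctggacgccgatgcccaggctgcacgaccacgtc
The letters TCACCCCA occurred 137 bases before the start of Hmgcs1 and 162 bases before that of Srebf2. They were in 1.56% of all 32851 windows of this length. CCAAT occurred 4 times in the Hmgcs1 window, at 45 and 14 bases before the start in Idi1, at 135 bases in Srebf2 and at 216 bases in Insig1, and was in 37.4% of all windows. In Lss it occurred 62 bases before the start. Of the 3 windows of Dhcr7, 1 held it, 85 and 49 bases before the start. A match of letters is a description and not a binding site.

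No gene of the 8 passed the threshold between BRAFYAP and YAP tumors (limma, adjusted p under 0.05), where 0.246% of 7319 genes did. The 6 enzymes had lower means in BRAFYAP and the 2 regulators had higher means, although the signs for Sqle and Srebf2 turned when single libraries were left out. By an unadjusted p under 0.05 in limma, 0 of the 7 genes tested on the deposited values were called, against 19.9% of all genes. Dhcr7, tested on reads because its mean was under 1 TPM, was called lower by the unadjusted p in its own fit, where 20.2% of 16863 genes were called in either direction and 10.5% lower, and where 0% passed the threshold. With voom, an alternative on the estimated reads, 0 of the 8 passed the threshold and 1 had an unadjusted p under 0.05. So did 3414 of all 16863 genes in the voom fit. The median log2 fold change of the 7 was -0.65, beside -0.06 for all genes, and was -0.18 without BRAFYAP replicate 6. That library had the lowest value of all 6 for each of the 6 enzymes. It was the lowest library for 32.5% of all genes on the deposited values and for 30.9% in the fit on reads.

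Hmgcs1, which encodes the cytosolic HMG-CoA synthase of the mevalonate pathway, was at 10.8, 7.03 and 9.17 TPM in YAP replicates 1, 2 and 3. In BRAFYAP replicates 1, 2 and 6 it was at 5.82, 7.12 and 1.34 TPM. The groups overlapped, because BRAFYAP replicate 2 lay just above YAP replicate 2, and only replicate 6 was far below the rest. The means were 8.98 ± 1.87 and 4.76 ± 3.03 TPM (SD, n = 3), which gave -0.96 as the log2 fold change (SE 0.48, adjusted p = 0.313). It was -0.41 without BRAFYAP replicate 6.

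Idi1, the isomerase that interconverts the isoprenoid building blocks, was at 13.7, 11.1 and 14.0 TPM in YAP and at 9.40, 9.56 and 4.82 TPM in BRAFYAP. Every BRAFYAP library was below every YAP library, which was so for 16.4% of all genes. The means of 12.96 ± 1.58 and 7.93 ± 2.69 TPM (SD, n = 3) gave a log2 fold change of -0.69 (SE 0.30, adjusted p = 0.262). Leaving out BRAFYAP replicate 6 gave -0.41.

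Fdps, the farnesyl diphosphate synthase at the branch between sterols and prenylation, was at 22.6, 17.5 and 24.6 TPM in YAP and at 17.4, 20.1 and 3.41 TPM in BRAFYAP. BRAFYAP replicates 1 and 2 lay near the YAP libraries and replicate 6 was at 18.2% of their mean. The log2 fold change was -0.90 (SE 0.59, adjusted p = 0.433) with means of 21.6 ± 3.65 and 13.6 ± 8.96 TPM (SD, n = 3). It came to -0.18 without that library.

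Sqle, squalene epoxidase, the first oxygen-requiring step of the sterol branch, was at 3.34, 10.2 and 9.64 TPM in YAP and at 9.93, 11.3 and 0.880 TPM in BRAFYAP. It was low in 1 library of each group, YAP replicate 1 and BRAFYAP replicate 6, and the other 4 lay between 9.64 and 11.3 TPM. The means of 7.71 ± 3.80 and 7.37 ± 5.66 TPM (SD, n = 3) differed by less than that spread (log2 fold change -0.34, SE 0.77, adjusted p = 0.830), and the sign turned to 0.53 without BRAFYAP replicate 6.

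Lss, the lanosterol synthase that closes the sterol rings, was at 2.80, 1.86 and 2.55 TPM in YAP and at 1.73, 1.62 and 0.388 TPM in BRAFYAP. The groups did not overlap, as for 16.4% of all genes in this direction, although BRAFYAP replicate 1 lay close under YAP replicate 2. The means were 2.40 ± 0.489 and 1.25 ± 0.746 TPM (SD, n = 3), with a log2 fold change of -0.65 (SE 0.30, adjusted p = 0.287) that was -0.34 without BRAFYAP replicate 6. The log2 fold change of Lss was -1.20 on scaled reads, -1.20 with a pseudocount of 0.0001 and -1.19 with voom, none past the threshold.

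Dhcr7, the reductase of the last step to cholesterol, was at 1.37, 1.009 and 0.846 TPM in YAP and at 0.687, 0.486 and 0.0887 TPM in BRAFYAP. All BRAFYAP libraries were again below all YAP libraries, which held for 17% of the genes in the fit on reads. In BRAFYAP replicate 6 the level rested on 76 estimated reads. The means were 1.08 ± 0.271 and 0.420 ± 0.304 TPM (SD, n = 3). On log2(reads + 1) the log2 fold change was -1.76 (SE 0.74, unadjusted p = 0.0471 and adjusted p = 0.242 in limma), beside a median of -0.11 over all genes in that fit, and was -0.87 without BRAFYAP replicate 6.

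**Figure D1:**
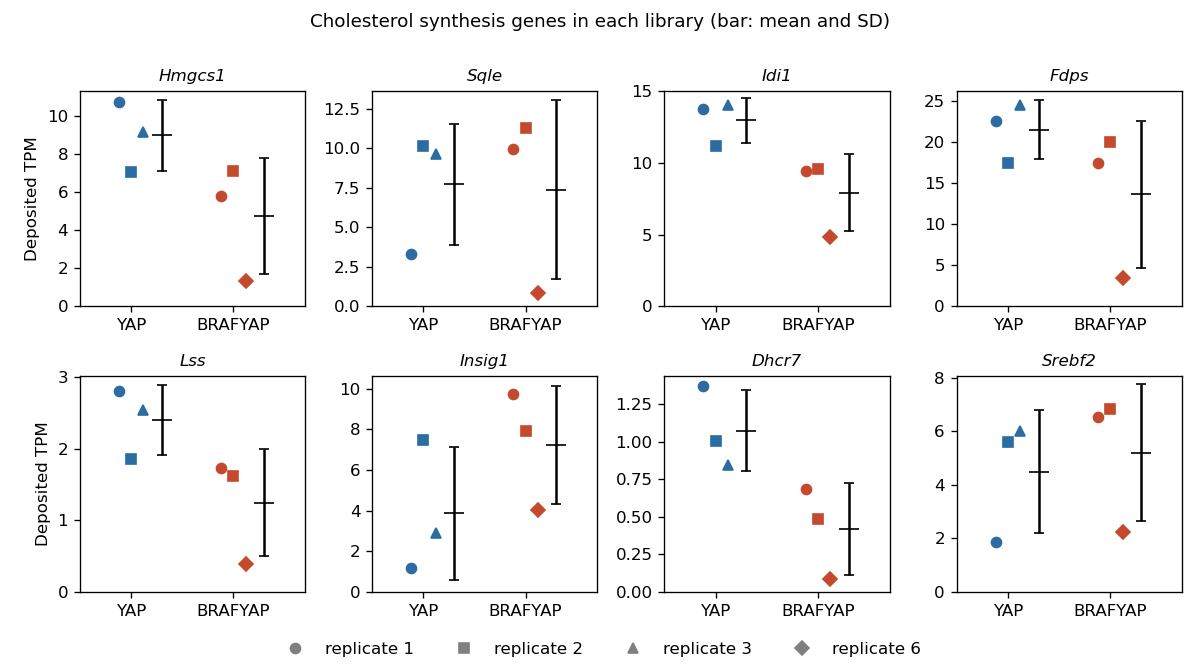
Each panel plots the deposited TPM (linear axis from 0) of 1 gene in the 3 YAP (blue) and 3 BRAFYAP (red) libraries, with symbols for the replicate number and a bar for the mean and SD. BRAFYAP replicate 6 (diamond) is the lowest point for the 6 enzymes, and YAP replicate 1 (blue circle) for Insig1 and Srebf2.

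The regulators were ordered otherwise. Srebf2, the gene of the SREBP2 transcription factor, was at 1.86, 5.62 and 6.0005 TPM in YAP and at 6.53, 6.83 and 2.25 TPM in BRAFYAP. Its lowest library was YAP replicate 1, with BRAFYAP replicate 6 next, and the other 4 lay between 5.62 and 6.83 TPM. The means were 4.49 ± 2.29 and 5.20 ± 2.56 TPM (SD, n = 3) and did not differ beyond that spread (log2 fold change 0.18, SE 0.48, adjusted p = 0.862). The sign turned without YAP replicate 1 (-0.24), BRAFYAP replicate 1 (-0.02) or BRAFYAP replicate 2 (-0.04).

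Insig1, the retention protein of the SCAP complex, was at 1.18, 7.49 and 2.91 TPM in YAP and at 9.74, 7.89 and 4.03 TPM in BRAFYAP. YAP replicates 1 and 3 were below all BRAFYAP libraries, but YAP replicate 2 lay between them, so the groups overlapped. The means of 3.86 ± 3.26 and 7.22 ± 2.91 TPM (SD, n = 3) gave a log2 fold change of 0.91 (SE 0.53, adjusted p = 0.383), which was 0.44 without YAP replicate 1, 1.42 without YAP replicate 2 and 1.23 without BRAFYAP replicate 6. With array weights, which give a library less weight the more it deviates, Insig1 passed the threshold (1.17, adjusted p = 0.0364 in limma), as did 1393 genes in all.

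**Figure D2:**
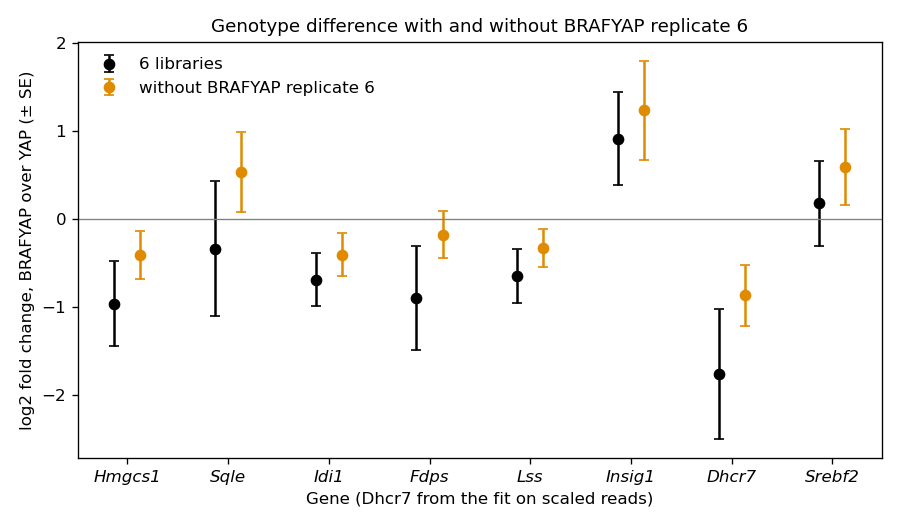
The log2 fold change of BRAFYAP over YAP (vertical axis, ± SE) is plotted for each gene from all 6 libraries (black) and without BRAFYAP replicate 6 (orange). Hmgcs1 moves from -0.96 to -0.41, Fdps from -0.90 to -0.18, and Sqle crosses 0.

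Within a library the enzymes and the regulators were set against each other, a comparison chosen after the values were seen and given without a test. The divisor was the mean of the 5 enzymes Hmgcs1, Idi1, Fdps, Lss and Dhcr7, with Sqle left out. The log2 ratio of Insig1 to that mean was -2.72, 0.42 and -1.23 in YAP and 1.03, 0.74 and 1.87 in BRAFYAP. The ratio was higher in each BRAFYAP library than in any YAP library. Idi1, Lss and Dhcr7, which enter the divisor, were themselves lower in BRAFYAP without overlap. Single genes separated in this way for 16.4% (lower) and 11.8% (higher) of all genes, and the share for such ratios was not computed. BRAFYAP replicate 6 had the highest ratio, and the enzymes that divide it were lowest there. For Srebf2 the same ratio was -0.28, 1.78 and 1.60 in YAP and 2.23, 2.32 and 2.81 in BRAFYAP, again without overlap. Sqle, like Srebf2, was low in YAP replicate 1 and BRAFYAP replicate 6. The ratio of Sqle, at -0.91, 1.16 and 0.80 in YAP and at 1.36, 1.56 and -0.03 in BRAFYAP, overlapped between the groups.

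The 2 libraries at the low end differed in which genes were low. In BRAFYAP replicate 6 all 8 genes were below the mean of BRAFYAP replicates 1 and 2, from 8.29% of it for Sqle, 15.1% for Dhcr7 and 18.2% for Fdps to 45.7% for Insig1 and 50.8% for Idi1. In YAP replicate 1 only Insig1 (22.6% of the mean of YAP replicates 2 and 3), Srebf2 (32.01%) and Sqle (33.7%) were below, and the other 5 were at 107% to 148%. YAP replicate 1 was the lowest library for 33.5% of all genes.

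The other lists carried the pathway outwards. Of 15 further synthesis enzymes, 0 passed the threshold in limma and 1, Pmvk, had an unadjusted p under 0.05 and was lower, as for 9.17% of all genes. Pmvk, phosphomevalonate kinase, was at 3.34, 2.53 and 2.94 TPM in YAP and at 1.69, 2.11 and 0.815 TPM in BRAFYAP (log2 fold change -0.66, SE 0.25, adjusted p = 0.212). Its groups did not overlap, lower in BRAFYAP, which was so for 16.4% of all genes. As among the 6 enzymes above, the lowest library was BRAFYAP replicate 6 for 13 of the 15, against 32.5% of all genes. The median log2 fold change of the 14 tested on deposited values was -0.41, and -0.09 without BRAFYAP replicate 6. Nsdhl, a sterol C4-demethylation enzyme, had a log2 fold change of -0.36 (adjusted p = 0.425).

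Tm7sf2, the sterol C14-reductase, had the opposite order in BRAFYAP replicate 6. It was at 0.795, 7.48 and 2.53 TPM in YAP and at 7.02, 6.80 and 10.1 TPM in BRAFYAP, highest where the other enzymes were lowest (log2 fold change 1.23, SE 0.54, adjusted p = 0.260). Its low libraries, YAP replicates 1 and 3, were those in which Insig1 was lowest.

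Of the 5 other genes that control SREBP, 0 passed the threshold in limma and 1 had an unadjusted p under 0.05. Over all genes 19.9% had such a p on deposited values and 20.2% on reads. Srebf1, which encodes SREBP1, the factor better known for fatty acid synthesis, was at 1.18, 6.34 and 2.52 TPM in YAP and at 8.34, 7.04 and 11.5 TPM in BRAFYAP. Its groups did not overlap, higher in BRAFYAP, which was so for 11.8% of all genes (log2 fold change 1.36, SE 0.45, adjusted p = 0.167). Unlike Srebf2, it was highest in BRAFYAP replicate 6. The escort Scap was at 0.97 on reads (adjusted p = 0.388), the INSIG1 paralog Insig2 at -0.26 (adjusted p = 0.490) and the protease gene Mbtps1 at -0.15 (adjusted p = 0.765), all log2 fold changes. The median log2 fold change of this list was -0.15 for the 3 genes tested on deposited values (0.06 without BRAFYAP replicate 6) and 0.24 for all 5 on reads.

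Uptake was described with 10 genes, of which 0 passed the threshold in limma and 3 had an unadjusted p under 0.05, 2 higher and 1 lower, beside 19.9% of all genes on deposited values and 20.2% on reads. Mylip, an E3 ubiquitin ligase of lipoprotein uptake, was at 0.155, 0.567 and 0.282 TPM in YAP and at 1.17, 0.724 and 2.06 TPM in BRAFYAP, without overlap, which on reads held for 11.7% of genes in this direction (log2 fold change 2.04, SE 0.58, adjusted p = 0.133). Lipa, the lysosomal lipase that frees cholesterol from its esters, was at 5.22, 4.27 and 2.19 TPM in YAP and at 2.003, 1.98 and 1.50 TPM in BRAFYAP (-0.74, SE 0.29, adjusted p = 0.219). Stard4, a cytosolic sterol carrier, had a log2 fold change of -0.56 (adjusted p = 0.325). The median of this list was -0.29 for the 6 genes tested on deposited values and 0.14 for all 10 on reads.

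**Figure D3:**
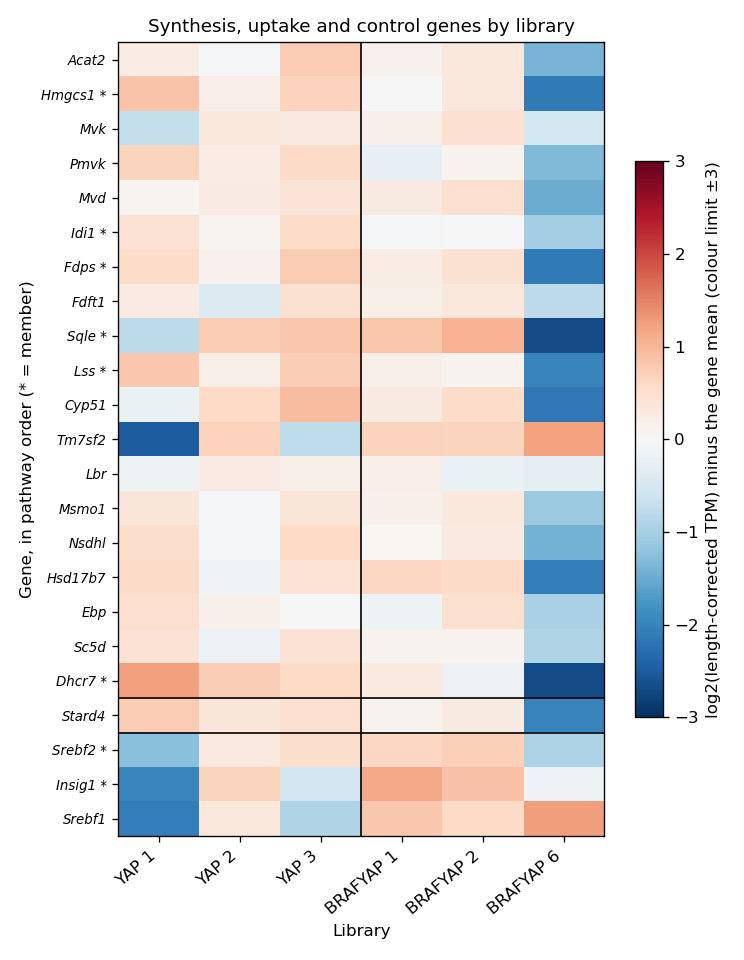
Rows are genes of synthesis in pathway order, 1 gene of cholesterol trafficking and 3 control genes (the described genes carry an asterisk), columns are the 6 libraries, and colour is log2(length-corrected TPM) minus the mean of the gene. The column of BRAFYAP replicate 6 is blue for most enzymes and for Stard4, and red for Tm7sf2 and Srebf1.

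On the side of disposal, 6 genes of efflux and esterification had 0 calls and 1 unadjusted p under 0.05 in limma. The share of all genes under that p was 19.9% on deposited values and 20.2% on reads. Abca1, the cholesterol exporter, was at 0.197, 0.193 and 0.154 TPM in YAP and at 0.307, 0.279 and 0.442 TPM in BRAFYAP (log2 fold change 0.90 on reads, SE 0.30, adjusted p = 0.169). Its groups did not overlap, which on reads held for 11.7% of genes in this direction. The exporter Abcg1 was at 0.78 on reads (adjusted p = 0.337), and Soat1, which esterifies cholesterol, at -0.49 (adjusted p = 0.268). The median was 0.97 for the 3 tested on deposited values, where it turned to -0.33 without YAP replicate 1, and 0.84 for all 6 on reads. Of 9 genes that draw on isoprenoids for other ends, 0 passed and 1 had an unadjusted p under 0.05, beside the same shares of all genes. That gene was Fnta, the shared subunit of the prenyltransferases that modify RAS and related proteins, at 0.403, 2.14 and 0.792 TPM in YAP and at 3.29, 4.12 and 5.27 TPM in BRAFYAP (1.38, SE 0.33, adjusted p = 0.102). The groups of Fnta did not overlap, as for 11.8% of all genes in this direction. Fntb, the partner of Fnta in farnesyltransferase, had a log2 fold change of -0.70 on reads (adjusted p = 0.286), so the 2 subunits had opposite signs and neither passed. Pdss1, for the ubiquinone side chain, was at 0.90 on reads (adjusted p = 0.429) and Dhdds, for dolichol, at -0.23 (adjusted p = 0.501), with a median of -0.18 for the 3 tested on deposited values and -0.07 for all 9 on reads. Fatty acid synthesis, 12 genes, had 0 calls and 0 unadjusted p-values under 0.05, with a median of -0.05 for the 6 tested on deposited values, which was 0.16 without BRAFYAP replicate 6. Its named genes were Acss2 (1.17 on reads), Scd1 (0.60), Scd2 (-0.46) and Acly (-0.28), with limma adjusted p-values of 0.357, 0.440, 0.359 and 0.621.

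Other features of the sorted cells varied along with genotype and library. The 5 macrophage markers all had an unadjusted p under 0.05 in limma, lower in BRAFYAP, none with an adjusted p under 0.0943, and all 5 were lowest in BRAFYAP replicate 6. Over all genes 9.17% were called lower in this way on deposited values and 10.5% on reads. Of 10 cell cycle genes 8 had an unadjusted p under 0.05, all lower in BRAFYAP, with a summed level of 268 to 293 length-corrected TPM in YAP and 118 to 153 in BRAFYAP. Of 10 genes listed as a dissociation response 7 had an unadjusted p under 0.05 in limma, all higher in BRAFYAP (10.7% of all genes). Their sums were 3849 to 9755 in YAP and 12529 to 20803 in BRAFYAP, and 6 of the 10 were lowest in YAP replicate 1. Whether handling or Braf V600E set the levels of these genes was not tested. The fibroblast sum was 117 to 214 in YAP and 78.0 to 254 in BRAFYAP, and those of T-cell, endothelial and adipocyte markers were at most 30.6 in any library. The part of these cells and responses in the values of the cholesterol genes was not tested.

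On the length-corrected scale the 8 genes spanned an order of magnitude. The means over 6 libraries were 105 ± 49.0 TPM for Srebf2, 93.1 ± 40.3 for Fdps, 70.9 ± 33.2 for Hmgcs1, 58.4 ± 33.8 for Sqle, 54.9 ± 17.8 for Idi1, 34.8 ± 20.9 for Insig1, 11.5 ± 5.30 for Lss and 8.55 ± 4.91 for Dhcr7 (SD, n = 6). The order differed between the genotypes. In YAP Fdps (112 ± 23.5) was above Srebf2 (95.4 ± 49.7) and Idi1 (67.3 ± 10.7) above Sqle (58.6 ± 29.02), while in BRAFYAP Sqle (58.2 ± 45.0) was above Hmgcs1 (50.3 ± 32.5) and Insig1 (46.1 ± 18.7) above Idi1 (42.6 ± 14.8), each mean with its SD (n = 3) and none of these differences tested within a genotype. Neighbours in the pooled order were compared over libraries by an exact sign-flip permutation test, two-sided, whose smallest p is 0.03125, adjusted over 7 pairs. No pair passed. Fdps exceeded Hmgcs1 in 6 of 6 libraries, and Lss exceeded Dhcr7 in 6 of 6 (each exact p = 0.03125, adjusted 0.109). The other 5 pairs held their order in 3 to 5 of 6 libraries, with adjusted exact p-values of 0.219 to 0.625. With the longest coding transcript in place of all exons, an alternative chosen after seeing the data, Fdps came first and Srebf2 next, and Sqle moved above Hmgcs1.

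**Figure D4:**
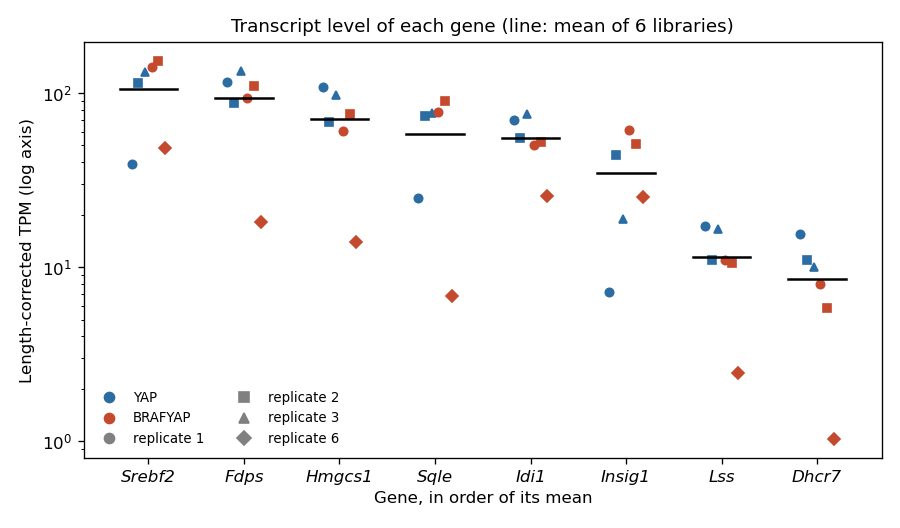
Length-corrected TPM (log axis) of each gene in the 6 libraries, in order of the mean (line), with colour for genotype and symbol for replicate. Fdps lies above Hmgcs1 and Lss above Dhcr7 in each library, while YAP replicate 1 is the lowest point for Srebf2 and Insig1.

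The genes most like the mean profile of the 7 tested genes, by Pearson correlation over the same 6 libraries, were Gpat4 (r = 0.996), Rassf1 (0.993), Osbpl5 (0.991), Agrn (0.987) and Rpusd1 (0.983). Gpat4 encodes a glycerol-3-phosphate acyltransferase and Osbpl5 an oxysterol-binding-protein relative. Without BRAFYAP replicate 6, r was 0.764 for Agrn and 0.993 for Gpat4. Gpat4 was at 3.95, 5.13 and 5.33 TPM in YAP and at 5.01, 5.06 and 2.18 TPM in BRAFYAP. From the wider lists, Mvd, mevalonate diphosphate decarboxylase, had an r of 0.991 and Cyp51, lanosterol demethylase, of 0.982. Among the 7 genes that make up the profile, r ranged from 0.952 for Sqle and 0.944 for Fdps down to 0.252 for Insig1. Without BRAFYAP replicate 6 the profile followed Sqle (0.939) and Srebf2 (0.937), and r was below 0 for Hmgcs1 (-0.54), Lss (-0.50), Idi1 (-0.31) and Fdps (-0.13). All these values share 6 libraries and the same depth and are given as descriptions.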

How the data were processed

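Kate-positive cells (about 20000 per library, 1 hour of digestion) were profiled by RNA-seq after SMART-Seq amplification (12 cycles), 8 further PCR cycles and 50-nt paired reads. The authors used bcl2fastq 2.2, aligned to mm10 with STAR 2.6.1d, quantified them with Partek on Ensembl release 95 and deposited TPM with 0.0001 added. Low values (under 200 reads) were whole multiples, within 0.05, of one step per library far more often with genomic span than with exonic length (GENCODE M21), 71.7 to 76.1% against 22.4 to 25.1%, so span was the divisor and reads were estimated from it. E/M quantification splits reads, and amplified reads carry no molecular identifier, so depth covers counting error only.

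The genotypes were compared with limma 3.58.1 (R 4.3.3, eBayes with trend), two-sided, on log2(TPM + 1), keeping genes of mean 1 or more. The threshold was an adjusted p of 0.05 (Benjamini-Hochberg, over all genes kept). Fold changes on this scale understate those of low genes. Genes below the minimum were taken from the same fit on log2(scaled reads + 1), minimum mean 10, where scaled reads undo the length division alone. Length-corrected TPM are estimated reads over exonic length, rescaled to the usual TPM total. The fit was tested on simulated data in which every gene had the same residual spread and no library deviated. That simulation does not show how the fit behaves with deviating libraries such as BRAFYAP replicate 6.

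Groups and replicate numbers come from the labels, which give no batch. A passage of the paper gives a later start of dox and its methods describe single tumors rather than pools. The labels were used. p-values measure the spread between these libraries only. The genes and lists were chosen with earlier results of these data known, and the lists were written from general knowledge. Named genes are the 8, list genes past the threshold or, where a list had none, the 2 with the smallest unadjusted p in each direction, and the 5 genes outside the lists most like the mean profile (predicted genes passed over). Mvd, Cyp51 and genes in the closing section were named after their values were seen. Some list genes, counted with their lists, are not reported here. Alternatives were pseudocounts of 0.1 and 0.0001, no filter or a mean of 10, quantile or median-ratio scaling, no trend, array weights, scaled reads, exonic-length TPM, voom, a replicate block and each library left out.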

Additional observations from a re-analysis of the deposited data

How the results depend on the processing

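The count of genes past the threshold over the whole table depended on the setting. It was 18 as reported (6 higher, 12 lower), 1 with a pseudocount of 0.1, 0 with 0.0001, 3 with a minimum mean of 10, 0 with no filter, 79 with quantile normalization (41 higher, 38 lower), 1 with median-ratio rescaling, 1 without a trend, 1393 with array weights (888 higher, 505 lower), 0 on scaled reads, 63 on exonic-length TPM (26 higher, 37 lower) and 0 with voom, and ranged from 0 to 465 when each library was left out, the 465 without YAP replicate 2. Where limma or voom gave 0, the genes with an unadjusted p under 0.05 numbered 1327 (pseudocount 0.0001), 3886 (no filter), 3408 (scaled reads) and 3414 (voom), and 1028 to 1142 where leaving out a library gave 0. Of the 8 cholesterol genes 1, Insig1, passed with array weights and 0 under the other settings. Sqle turned to 0.079 with array weights and to 0.53 without BRAFYAP replicate 6, and Srebf2 ranged from -0.24 to 0.59 when each library was left out. The other 6 kept their sign under each setting that gave them a value, and the median of the 7 ranged from -0.82 to -0.18 when each library was left out. At a minimum mean of 10 only Idi1 and Fdps of the 8 were tested, so the 0 there covers 2 genes. The cause of these shifts was not tested.

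Replicate numbers 1 and 2 are shared between the groups, but same-numbered libraries did not deviate together (correlations of -0.05 and 0.06). Whether they share more than a number is not given by the labels and was not settled here. A fit with the replicate number as a block rests on those 4 libraries. It called 0 genes in limma (987 at an unadjusted p under 0.05), gave a median of -0.08 for the 7 genes and turned Sqle to 0.74.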

Other observations

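Fatty acid genes lay in both directions in BRAFYAP replicate 6, where most cholesterol enzymes were lowest and Tm7sf2 was highest. These values were chosen after they were seen and are given without a test. Fasn, fatty acid synthase, was at 25.2 TPM there and at 4.35 to 10.0 TPM in the other 5 libraries. Scd1, a desaturase, was at 16.3 TPM against 4.42 to 5.93 TPM. Fads1 and Fads2, the polyunsaturated fatty acid desaturases, went with the cholesterol enzymes instead, at 2.11 and 0.273 TPM in that library, their lowest. Of the 12 fatty acid genes 4 were highest and 3 lowest in BRAFYAP replicate 6, which was the lowest library for 32.5% and the highest library for 19.8% of all genes. Npc2, the lysosomal cholesterol carrier, was at 174 TPM in that library and at 17.6 to 30.5 TPM in the others.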
